A study of Mus musculus with 18 samples.

Results

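RNA-seq of 4 mouse embryonic stem (ES) cell libraries was compared at day 7 (D7) of differentiation, 2 from wild-type (wt) E8 cells and 2 from E8 cells labelled Kdm6a knockout (KO). They were chosen by their labels (line E8, D7) from the 18 libraries of the series, which also holds 4 E8 libraries at D15 and 10 libraries of another ES line. E8 is a female hybrid ES line from a cross of C57BL/6J (BL6) with Mus castaneus (cast), so that reads over single nucleotide differences can be assigned to a parental chromosome. Both groups were given the same nondirected differentiation, as embryoid bodies (EBs) after removal of leukemia inhibitory factor, and both had been kept as ES cells on mouse fibroblast feeders. Per the methods of the study, the E8 KO was made with CRISPR/Cas9 guide RNAs that delete the Kdm6a promoter on both alleles, and 1 such E8 clone is described. The labels name no clone, so the 2 KO libraries may come from 1 clone, and nothing says that the replicates are separate cultures. The methods describe E8 RNA-seq only at earlier days, so that D7 and D15 are known from the labels. P-values measure only the spread between these libraries, which may be technical. The comparison asks which lineages and pathways differ between KO and wt EBs.

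KDM6A is an X-linked histone demethylase that removes the repressive mark H3K27me3 from genes that are switched on as cells differentiate, and it acts within KMT2C/KMT2D complexes. In EBs made without directing factors, cells at the surface form primitive endoderm, which gives visceral endoderm (an absorptive, protein-secreting epithelium) and parietal endoderm (a migratory cell that lays down a thick basement membrane). Cells inside keep an epiblast state for some days and then pass through primitive streak stages to mesoderm, definitive endoderm and ectoderm. In female cells the same days see the start of X inactivation, when Xist RNA coats and silences an X chromosome.

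The sequence just before the Kdm6a start site is shown first, because the KO is described as a deletion of this promoter. The 250 bases are from RefSeq (GRCm38.p6), chrX:18162325-18162574, plus strand, with no base in capitals.
Kdm6a: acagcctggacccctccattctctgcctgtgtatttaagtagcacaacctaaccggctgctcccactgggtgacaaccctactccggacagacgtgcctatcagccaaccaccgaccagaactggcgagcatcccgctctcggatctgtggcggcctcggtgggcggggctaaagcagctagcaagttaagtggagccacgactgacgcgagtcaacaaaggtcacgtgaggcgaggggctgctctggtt
Kdm6a was expressed at 46.7 and 47.2 TPM in wt and 0.00969 and 0.0319 TPM in KO. Its transcript was thus near 0 in both libraries labelled KO and the groups did not overlap (log2 difference -5.55 ± 0.05 (SE), adjusted p = 4.46e-10 by limma, n = 2 and 2). Xist, the RNA that starts X inactivation, was at 5.63 and 6.03 TPM in wt and 0.268 and 0.257 TPM in KO. Both KO libraries lay far below both wt libraries (log2 difference -2.44 ± 0.08, adjusted p = 1.36e-07 by limma). The kit does not mark strand, so reads of Xist and of its antisense partner Tsix cannot be told apart where these genes overlap. The smallest p that an exact two-sided permutation test of 2 against 2 libraries allows is 0.333, so all adjusted p-values here rest on the spread pooled by the model over 8 E8 libraries.

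Before the gene comparisons, the allelic values set the KO libraries apart from wt on 3 chromosomes. The BL6 share of a gene is its BL6 part of the allelic TPM (transcript abundance scaled to the same total in each library), rescaled so that the median autosomal gene has equal shares. Over X-linked genes the median BL6 share was 53.2% and 53.1% in the wt libraries and 100% in both KO libraries. The change began close to Kdm6a. Of the 40 X-linked genes with a share in all 4 libraries that start before Fundc1, 2 were above 95% BL6 in both KO libraries, against 204 of the 235 genes from Fundc1 on, where 10 were above 95% in both wt libraries. Cask, at -4.65 Mb from the start of Kdm6a, had a mean BL6 share of 45.9% in wt and 49.4% in KO, and Fundc1, at -0.606 Mb, had 52.7% in wt and 100% in KO. Expression followed the same boundary. The median log2 difference of KO from wt was 0.21 over the 57 tested genes before Fundc1 (12 called higher, 6 lower) and -0.71 over the 396 tested genes from Fundc1 on (21 higher, 120 lower). Chromosome 12, which was uneven in wt too, had a median BL6 share of 39.8% and 39.1% in wt and 67.5% and 66.9% in KO, with a median log2 difference of 0.09 over 455 genes. On chromosome 19 beyond 10 Mb the share was 49.6% and 50.4% in wt and 33.1% and 32.5% in KO, with a median log2 difference of 0.62 over 264 genes, 74 of them higher and 4 lower. The other 17 autosomes had median shares from 44.6% to 53.7% in all 4 libraries. The boundaries at Fundc1 and at 10 Mb were chosen after the values were seen. These chromosomal differences and the loss of Kdm6a are carried by the same libraries and cannot be told apart, so the main counts below are also given without genes on chromosomes 12, 19 and X.

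**Figure D1:**
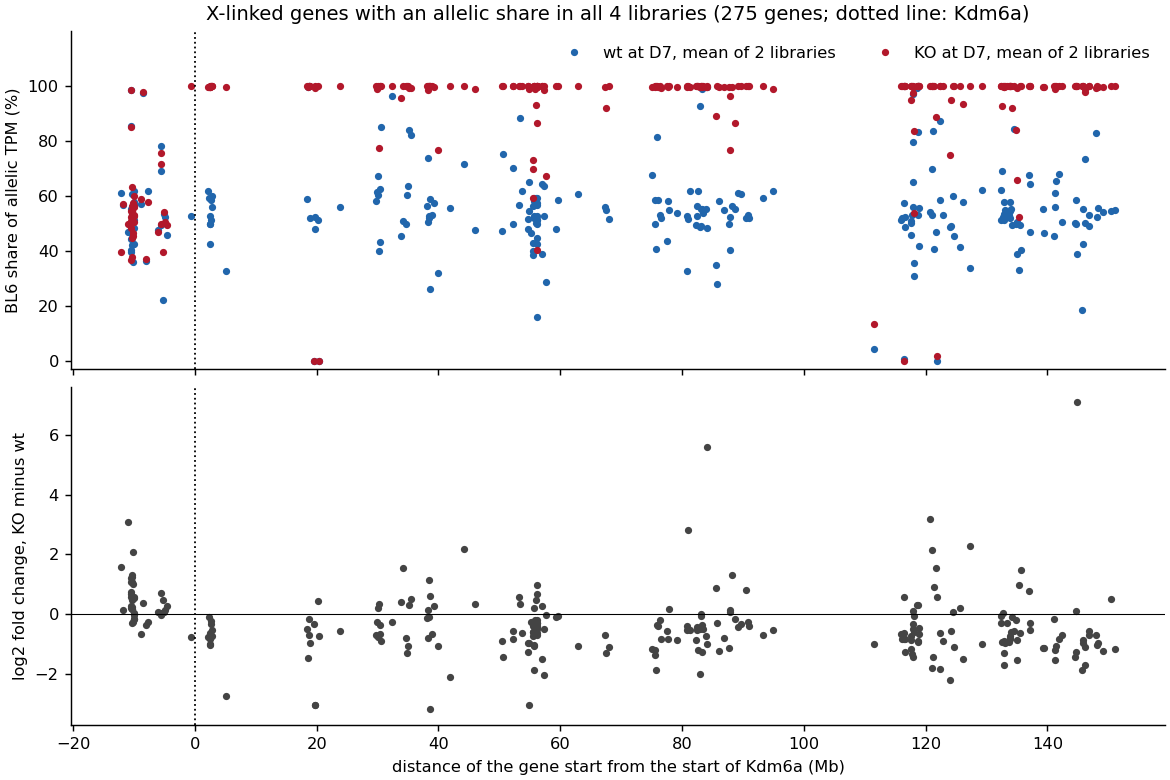
X-linked genes at D7 plotted by the distance of their start from the start of Kdm6a (Mb; dotted line). The upper panel gives the mean BL6 share (%) of 2 wt (blue) and 2 KO (red) libraries, and the lower panel the log2 difference KO minus wt. Of the 235 genes from Fundc1 on, 204 lie above 95% BL6 in both KO libraries.

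**Figure D2:**
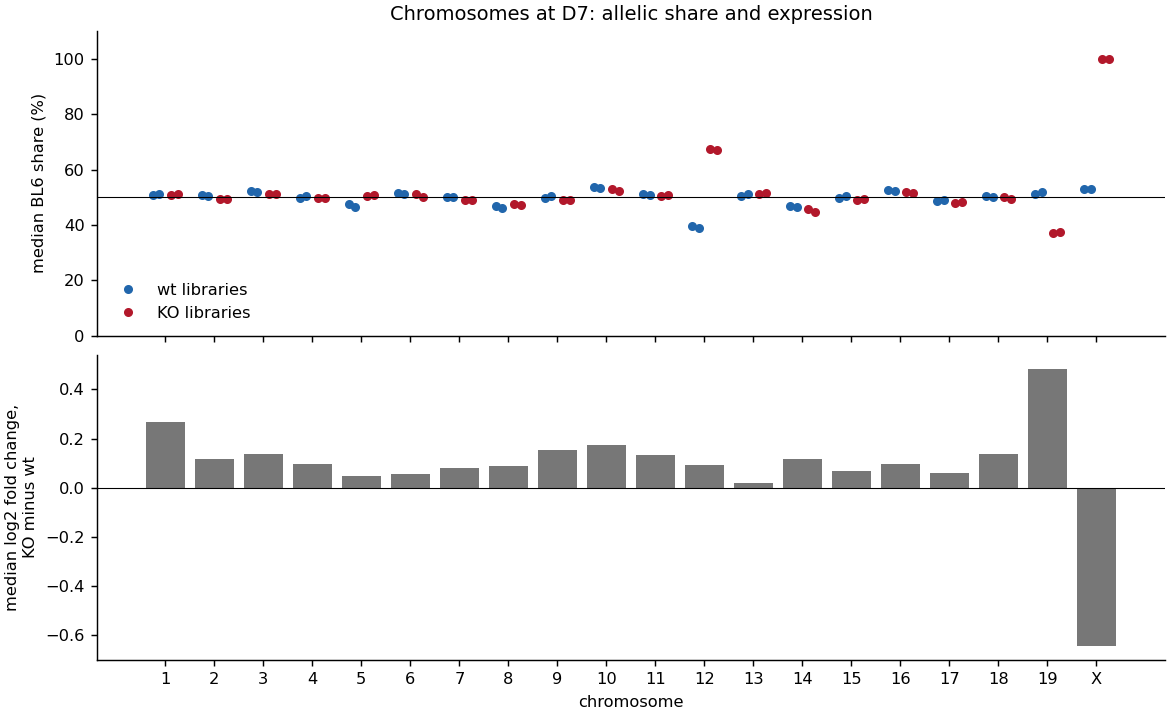
Median BL6 share (%) of each chromosome in each of the 4 D7 libraries (upper panel, wt blue, KO red) and median log2 difference KO minus wt over the tested genes of each chromosome (lower panel, bars from 0). Shares differ between wt and KO on chromosomes 12, 19 and X, and the X has the lowest median difference at -0.64.

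Across the 12452 genes tested, 2184 (17.5%) were called different at D7 by limma (false discovery rate at most 0.1 and at least 2-fold), 1414 (11.4%) higher and 770 (6.18%) lower in KO. The groups of 2 libraries did not overlap for 2181 of the 2184 genes. A call asks for a false discovery rate of at most 0.1 and a fitted difference of at least 2-fold, which favours separated groups. The share over all genes was not counted, so the 2181 cannot be set against it and adds no support. Without genes on chromosomes 12, 19 and X, 1828 of 11076 genes (16.5%) were called, 1220 higher and 608 lower. The median difference over all genes was 0.10 on the log2 scale, and the share of higher calls depends on the scaling: it was 64.7% as deposited, 58.8% after median ratio scaling and 51.8% after quantile normalization, which moved the median over all genes to -0.05. Differences are on the log2(TPM + 1) scale and understate changes of low genes. The wt replicates correlated at r = 0.972 and the KO replicates at r = 0.974 across genes, wt with KO at 0.873 to 0.882. Genes are not independent replicates, and these r values only describe the libraries. The total number of reads behind the values is unknown, since the values are TPM.

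**Figure D3:**
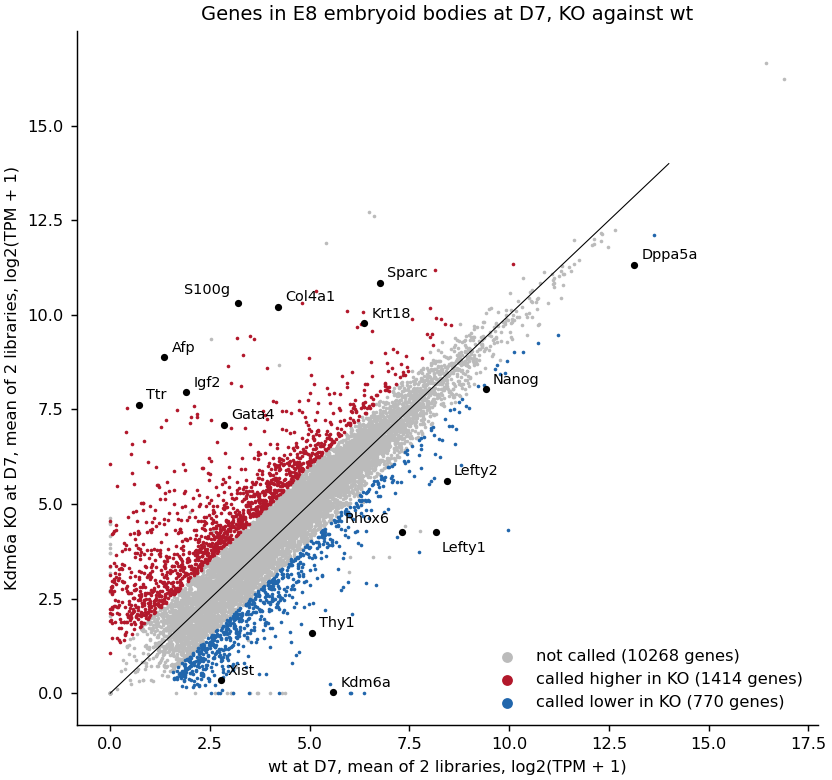
Each point is a tested gene, with its mean log2(TPM + 1) over 2 wt libraries (x) and 2 KO libraries (y) at D7; the line marks equal levels. Red genes (1414) were called higher and blue genes (770) lower in KO, and the labelled genes are described in the text.

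The 10 largest rises on the log2(TPM + 1) scale held genes of the visceral and parietal endoderm lists and others. Afp, the fetal serum protein alpha-fetoprotein made by visceral endoderm and fetal liver, was at 1.53 and 1.58 TPM in wt and 475 and 463 TPM in KO. Neither KO library came near the wt range (log2 difference 7.52 ± 0.04, adjusted p = 1.56e-10 by limma), and the mean TPM was 301-fold higher in KO. Ttr, a carrier of thyroid hormone and retinol-binding protein, was at 0.73 and 0.561 TPM in wt and 195 and 197 TPM in KO. Aqp8, a water channel, went from 0.33 to 187 TPM on average and S100g, a calcium-binding protein of absorptive epithelia, from 8.27 to 1279 TPM. Glipr1, a protein of the CAP family, rose from 0.321 to 119 TPM and Acta2, smooth muscle actin, from 0.448 to 95.6 TPM. S100g is X-linked and beyond Fundc1, where most genes were lower in KO, and Acta2 is on chromosome 19. The adjusted p of these 6 genes was at most 3.15e-09 by limma. No overlap between groups was a condition for the 10 largest rises and falls, so it is no further support for them.

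Of the 30 visceral endoderm genes listed, 23 were tested, and 20 of them rose, none fell, with a median log2 difference of 4.22 against 0.10 over all genes. Without chromosomes 12, 19 and X, 15 of 18 rose. The list covers the endocytic machinery of this epithelium and what it secretes, and other lists hold 8 of its genes. Dab2, the clathrin adaptor of that machinery, was at 7.4 and 6.92 TPM in wt and 299 and 286 TPM in KO. Amn, the membrane partner of the cubilin receptor, was at 5.11 and 4.38 TPM in wt and 144 and 154 TPM in KO. Cited1, a transcriptional coregulator, was at 9.55 and 8.71 TPM in wt and 484 and 492 TPM in KO, and Rbp4, the plasma carrier of retinol, at 8.42 and 9.09 TPM in wt and 278 and 275 TPM in KO. In each of the 4 genes both KO libraries exceeded both wt libraries, by log2 differences from 4.71 (Amn) to 5.59 (Cited1), with an adjusted p of at most 4.9e-09 by limma. Cited1 is on the X, Amn on chromosome 12 and Rbp4 on chromosome 19. The tested genes that did not pass were Apoe, Apoa2 and Trf, apolipoproteins and transferrin, at 2665 in wt and 2155 in KO, 23.7 in wt and 24.7 in KO and 10.8 in wt and 8.4 in KO TPM. Apoe was the most abundant member in both groups, and the summed level of the list was 2874 and 2637 TPM in wt and 4690 and 4809 TPM in KO. The liver genes Alb, Fga, Fgg, Serpina1b and Vtn had means below 1 TPM in both groups.

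The sequence before the start of Afp is shown because Afp had the largest rise by the rule for named genes, on the log2(TPM + 1) scale. The 250 bases are from RefSeq (GRCm38.p6), chr5:90490464-90490713, plus strand, with any AGATAA, the site of GATA factors, on either strand in capitals.
Afp: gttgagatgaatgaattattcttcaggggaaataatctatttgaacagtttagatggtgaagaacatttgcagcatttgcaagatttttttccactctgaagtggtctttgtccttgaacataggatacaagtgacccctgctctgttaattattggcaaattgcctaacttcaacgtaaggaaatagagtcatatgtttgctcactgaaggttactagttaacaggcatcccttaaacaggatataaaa
No capitals stand in this window, which says only that these letters are not in it. Within 250 bases before a start site AGATAA was held by 1 of 32 windows of the visceral endoderm list (3.13%; 24 of its genes have a RefSeq promoter) and 0 of 13 of the parietal endoderm list (9 genes), against 9.99% of 32851 windows of all genes. Such a match is a description of the letters and does not show binding, and the motif was chosen with the results known. Among other members of the visceral endoderm list, looked up after their values were seen, Apoc2, a cofactor of lipoprotein lipase, rose from 1.33 to 42.5 TPM and Fgb, the fibrinogen beta chain, from 0.0631 to 7.09 TPM. Hnf4a, the nuclear receptor that drives visceral endoderm and liver genes, rose from 1.03 to 12.7 TPM (log2 difference 2.76 ± 0.07, adjusted p = 4.35e-08 by limma).

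Genes of parietal endoderm rose too. Of 15 listed and tested genes, 13 rose and none fell (median log2 difference 4.09); without chromosomes 12, 19 and X, 12 of 14 rose. The summed TPM of the list was 450.1 and 429 TPM in wt and 7006 and 6896 TPM in KO. Sparc, a matrix protein made in large amounts by parietal endoderm, was at 108 and 107 TPM in wt and 1893 and 1804 TPM in KO. The basement membrane collagens Col4a1 and Col4a2 were at 18.3 and 16.7 TPM in wt and 1175 and 1201 TPM in KO for the first, and at 8.51 and 7.74 TPM in wt and 662 and 672 TPM in KO for the second. They are neighbours on chromosome 8, and in each the KO values were above the wt values. The laminin chains Lamb1 and Lamc1 rose from 77.2 to 867 and from 92.8 to 756 TPM, both with no overlap between libraries. The log2 differences were 4.09 ± 0.05 for Sparc, 6.01 ± 0.04 for Col4a1, 6.20 ± 0.04 for Col4a2, 3.47 ± 0.04 for Lamb1 and 3.01 ± 0.04 for Lamc1, with an adjusted p of at most 3.65e-09 by limma. Lamb1 is on chromosome 12. Nid1 and Fbln1, also basement membrane proteins, did not pass, at 38.4 in wt and 75.3 in KO and 49.2 in wt and 43.3 in KO TPM.

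Regulators of endoderm were called in the same direction with 2 exceptions. Of 16 tested, 11 rose and 2 fell (median 2.13); 16 of the list's 17 genes are also in other lists. Gata4 and Gata6, which specify primitive endoderm, were at 6.33 and 6.12 TPM in wt and 136 and 135 TPM in KO for Gata4, and at 2.6 and 2.68 TPM in wt and 59.4 and 57.3 TPM in KO for Gata6. Sox17, needed for endoderm of both kinds, was at 1.81 and 1.53 TPM in wt and 46.9 and 47.2 TPM in KO, and Foxa2, a pioneer factor of endoderm, at 2.45 and 2.96 TPM in wt and 39.3 and 40.6 TPM in KO. All KO values lay above all wt values, and the adjusted p of the 4 was at most 1.73e-08 by limma. The 2 that fell were Trh, the precursor of thyrotropin-releasing hormone, from 221 to 107 TPM, and Cer1, a Nodal and BMP antagonist of anterior endoderm, from 7.03 to 2.62 TPM (adjusted p = 3.12e-07 and 5.87e-05 by limma). Gsc and Cxcr4, which mark anterior streak and definitive endoderm, did not pass, with 4.45 in wt and 4.61 in KO and 6.93 in wt and 6.59 in KO TPM. In bulk RNA a larger share of cells of a type and more RNA per cell cannot be told apart, here and in every list below.

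**Figure D4:**
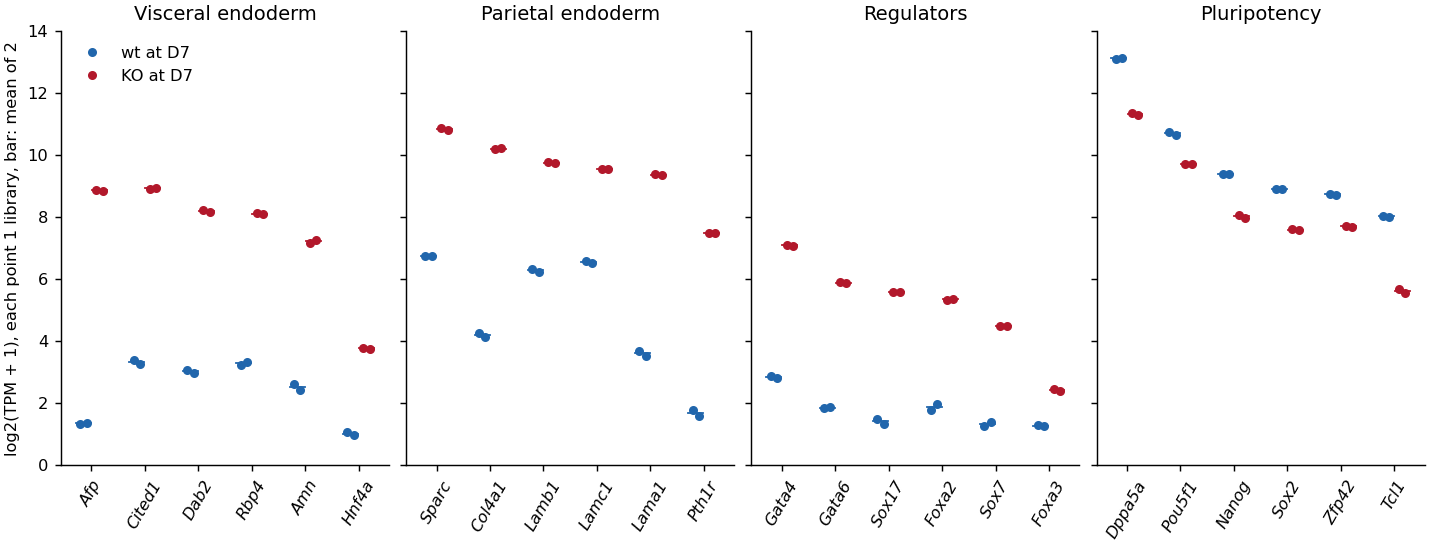
Levels of 24 genes in the 4 D7 libraries as log2(TPM + 1), each point 1 library and each bar the mean of 2 (wt blue, KO red). The genes were picked from the lists. For these genes every KO point lies above every wt point in the 3 endoderm panels and below in the pluripotency panel. Not shown are Trh and Cer1, called lower, and Apoe, Trf and Fbln1, not called. Also not shown are 2 naive pluripotency genes with a log2 difference above 0.

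The germ layer genes that the study chose on its other ES line were also counted. The study describes them as lower in KO of that line at D15, with no clear pattern in E8 at earlier days. Line and day thus differ from those compared here, where more of them rose than fell. Of 39, 32 were tested, 20 rose and 4 fell (median 1.43), and 16 and 4 of 27 did so without chromosomes 12, 19 and X. Afp, Cited1, Dab2 and Amn, given above, had the highest KO levels among those that rose, and 28 of its genes are held by other lists. Besides Trh and Cer1, Gfpt2, an enzyme of hexosamine synthesis, fell from 50.9 to 20.4 TPM and Eppk1, epiplakin of epithelia, from 3.01 to 0.8 TPM. The list was chosen by the study on other libraries, and its count is no independent evidence of a direction here, since it shares most of its genes with the lists above.

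Pluripotency genes were expressed in both groups at D7 and were lower in KO. The defining factor Pou5f1 was at 1729 and 1625 TPM in wt and 848 and 846 TPM in KO, just short of the 2-fold threshold (log2 difference -0.98 ± 0.05), and was looked up after the values were seen. Levels of pluripotency genes were thus still high in wt EBs at D7. Of 16 genes of naive pluripotency, 9 fell and none rose (median -1.02); 7 of 13 fell without chromosomes 12, 19 and X. Dppa5a, an RNA-binding protein of ES cells, was at 8853 and 9087 TPM in wt and 2619 and 2521 TPM in KO. Nanog, which sustains self-renewal, was at 675 and 680.0 TPM in wt and 268 and 253 TPM in KO, and Zfp42 (Rex1), a marker of the naive state, at 432 and 421 TPM in wt and 211 and 206 TPM in KO. Tcl1, a coactivator of Akt signalling, was at 265 and 257 TPM in wt and 50.2 and 46.4 TPM in KO and is on chromosome 12. No KO value of the 4 genes reached a wt value (adjusted p at most 1.53e-07 by limma). In wt at D15 Dppa5a was still at 12451 and 12921, Nanog at 638 and 667, Zfp42 at 390 and 405 and Tcl1 at 351 and 371 TPM. The wt libraries at D7 correlated with those at D15 at r = 0.961 to 0.963, against 0.972 between the wt replicates at D7. KO is thus compared here with wt EBs in which these genes stayed high. Of 10 core genes 3 fell, namely Sox2 from 481 to 194, the Nodal coreceptor Tdgf1 from 337 to 152 and the TGF-beta family ligand Gdf3 from 75 to 33 TPM (adjusted p at most 1.65e-07 by limma). Among 12 genes of the formative epiblast, Sall2, a zinc finger factor, rose from 6.7 to 16 TPM and none fell, while 11.4% of all genes were called higher.

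Genes of the germline that ES cells also express were lower in KO. Of 18 tested, 11 fell and none rose (median -1.45). Rpl10l, a testis ribosomal protein gene, fell from 71.9 to 18.5 TPM, and Sycp3, of the meiotic chromosome axis, from 60.9 to 16.5 TPM. Tuba3a, a testis tubulin, fell from 27.8 to 3.88 TPM and Mael, a piRNA pathway protein, from 19.5 to 4.53 TPM, with an adjusted p of at most 2.58e-07 by limma for the 4. Reads of Tuba3a and its near copy Tuba3b, and of Rpl10l and X-linked Rpl10, may be split by the counting. Of the Rhox homeobox genes on the X, 5 were tested and 4 fell: Rhox6 from 158 to 18, Rhox9 from 145 to 16.6, Rhox1 from 6.08 to 0.49 and Rhox13 from 2.55 to 0.367 TPM. Rhox6 and Rhox9, which are near copies, had mean BL6 shares of 48.1% and 52.5% in wt and 99.4% and 100% in KO. Their falls (log2 differences -3.06 ± 0.04 and -3.05 ± 0.06) exceeded the median of -0.71 over that part of the X. None of the genes listed for the 2-cell-like state reached the tested level.

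More trophoblast genes rose than fell. Of 16 tested, 6 rose and 3 fell, against 11.4% and 6.18% of all genes. Without chromosomes 12, 19 and X, 5 of 12 rose and 1 fell. The placental genes Tpbpa and Prl3d1 were listed at 0 in all 4 libraries. The keratin Krt7 rose from 6.22 to 38.7 TPM, and Plac1, an X-linked placental surface protein, from 1.44 to 8.51 TPM. Hand1, a factor of trophoblast and lateral mesoderm, was at 4.59 and 4.55 TPM in wt and 47.9 and 50.2 TPM in KO. Peg10, a paternally expressed placental gene, rose from 287 to 966 TPM. Those that fell were Rhox6 and Rhox9, both on the X beyond Fundc1, and Ascl2, a maternally expressed trophoblast factor, from 8.31 to 2.05 TPM.

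Of 17 primitive streak genes, 5 rose and 2 fell (median 0.03). T (Brachyury), the defining factor of the streak, was at 6.3 and 6.4 TPM in wt and 46.9 and 46.9 TPM in KO, with all KO values above wt (log2 difference 2.70 ± 0.09, adjusted p = 1.24e-07 by limma). Cdx2, a posterior and trophoblast factor, rose from 0.151 to 6.92 TPM, the streak ligand Wnt3 from 2.1 to 5.87 TPM and its target Sp5 from 1.95 to 6.74 TPM. Lefty2, an antagonist of Nodal, was at 346 and 343 TPM in wt and 48.3 and 48.3 TPM in KO (log2 difference -2.81 ± 0.03), and Mesp1, of the earliest cardiac mesoderm, fell from 5.28 to 1.08 TPM. Eomes and Mixl1, which mark streak cells that leave the epiblast, did not pass, at 22.5 in wt and 23 in KO and 4.15 in wt and 3.15 in KO TPM. In paraxial mesoderm 6 genes were tested: Foxc1, a forkhead factor, rose from 0.206 to 2.67 TPM, while Tcf15, a somite factor, fell from 61.3 to 26.7 and the Notch ligand Dll3 from 4.06 to 1.3 TPM.

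Of 10 lateral plate and early cardiac regulators 6 rose and none fell. They include Gata4, Gata6 and Hand1, which other lists share. Cardiac sarcomere genes were split at low levels, with 4 of 10 higher and 3 lower. Myl3, a ventricular light chain, rose from 1.78 to 26.3, the troponin Tnnc1 from 3.8 to 13.2, the natriuretic peptide Nppb from 1.03 to 4.46 and the Z-disc protein Csrp3 from 0.0298 to 3.24 TPM. The light chains Myl7, Myl2 and Myl4 fell, Myl7 from 19.4 to 3.66 and Myl4 from 9.7 to 2.78 TPM, and Myl2 was at 10.05 and 10.3 TPM in wt and listed at 0 in both KO libraries. The endothelial list held 3 rises and 4 falls among 16 genes. The VEGF receptor Flt1 rose from 1.72 to 22.8, Sox7, also a factor of primitive endoderm, from 1.53 to 21.3, and the junction protein Esam from 1.45 to 5.46 TPM. Pecam1, which ES cells also express, fell from 70.6 to 31.3, the tight junction protein Cldn5 from 5.61 to 0.984, the hemangioblast factor Etv2 from 5.16 to 1.07 and the guidance receptor Robo4 from 3.69 to 0.825 TPM. In the blood list, Car2, carbonic anhydrase, rose from 44.7 to 143 and Runx1, a hematopoietic factor, from 0.421 to 7.42 TPM, and the globin genes had means below 1 TPM in both groups.

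Few ectoderm genes reached the tested level. Of 30 genes of neural progenitors 5 were tested, of which the homeobox genes Irx3 and En1 rose from 1.03 to 3.5 and from 0.702 to 3.34 TPM. Among 11 tested neuron genes, the growth cone protein Gap43 rose from 12.2 to 37.7, the neurofilament Nefm from 3.85 to 14.1 and the homeobox factor Isl1 from 0.297 to 1.91 TPM, and the RNA-binding protein Elavl3 fell from 4.86 to 1.59 TPM. Of 5 neural crest genes, Ets1 rose from 1.56 to 23.2 and Twist1 from 4.2 to 12.6 TPM, both transcription factors, and 1 gene fell. Of 16 tested epithelial genes, 7 rose and 1 fell. The simple-epithelium keratins Krt8 and Krt18 were at 32.5 and 29.1 TPM in wt and 454 and 478 TPM in KO for Krt8, and at 82.5 and 81.1 TPM in wt and 889 and 872 TPM in KO for Krt18. Cldn6 and Cldn7, tight junction claudins, rose from 117 to 507 and from 61.7 to 140.1 TPM, and Cldn3 fell from 36.4 to 13.8 TPM. The adjusted p of these 5 genes was at most 2.12e-06 by limma.

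Mesenchymal genes rose as well. Of 12 genes of the epithelial to mesenchymal transition, 9 rose and none fell (median 1.67). Vim, the intermediate filament vimentin, was at 74.1 and 68.4 TPM in wt and 821 and 829 TPM in KO (log2 difference 3.52 ± 0.04, adjusted p = 1.77e-09 by limma). The integrins Itgb1 and Itga5 rose from 82.4 to 205 and from 21.4 to 67.9 TPM, and Mmp14, a membrane protease, from 12 to 81.6 TPM. Of 16 fibroblast genes, 10 rose and 1 fell. Tagln, a smooth muscle and mesenchyme protein, rose from 7.18 to 128.9 TPM, the receptor Pdgfra, also of primitive endoderm, from 1.29 to 44.5 TPM, and the collagen Col5a1 from 6.49 to 29.2 TPM. Thy1, a surface protein of fibroblasts and ES cells, was at 32.4 and 32.4 TPM in wt and 2.21 and 1.86 TPM in KO and so moved the other way. Since ES cells were kept on fibroblast feeders, the list's summed level is given: 145 and 143 TPM in wt and 473 and 470.4 TPM in KO. Dcn, Lum, Mgp and Lox, defining fibroblast genes, had means below 1 TPM in both groups, and 6 of the 25 genes listed were below 1 TPM in all 4 libraries. Col1a1, type I collagen, looked up after the values were seen, rose from 0.608 to 17.4 TPM. The part of feeders in these rises was not tested.

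**Figure D5:**
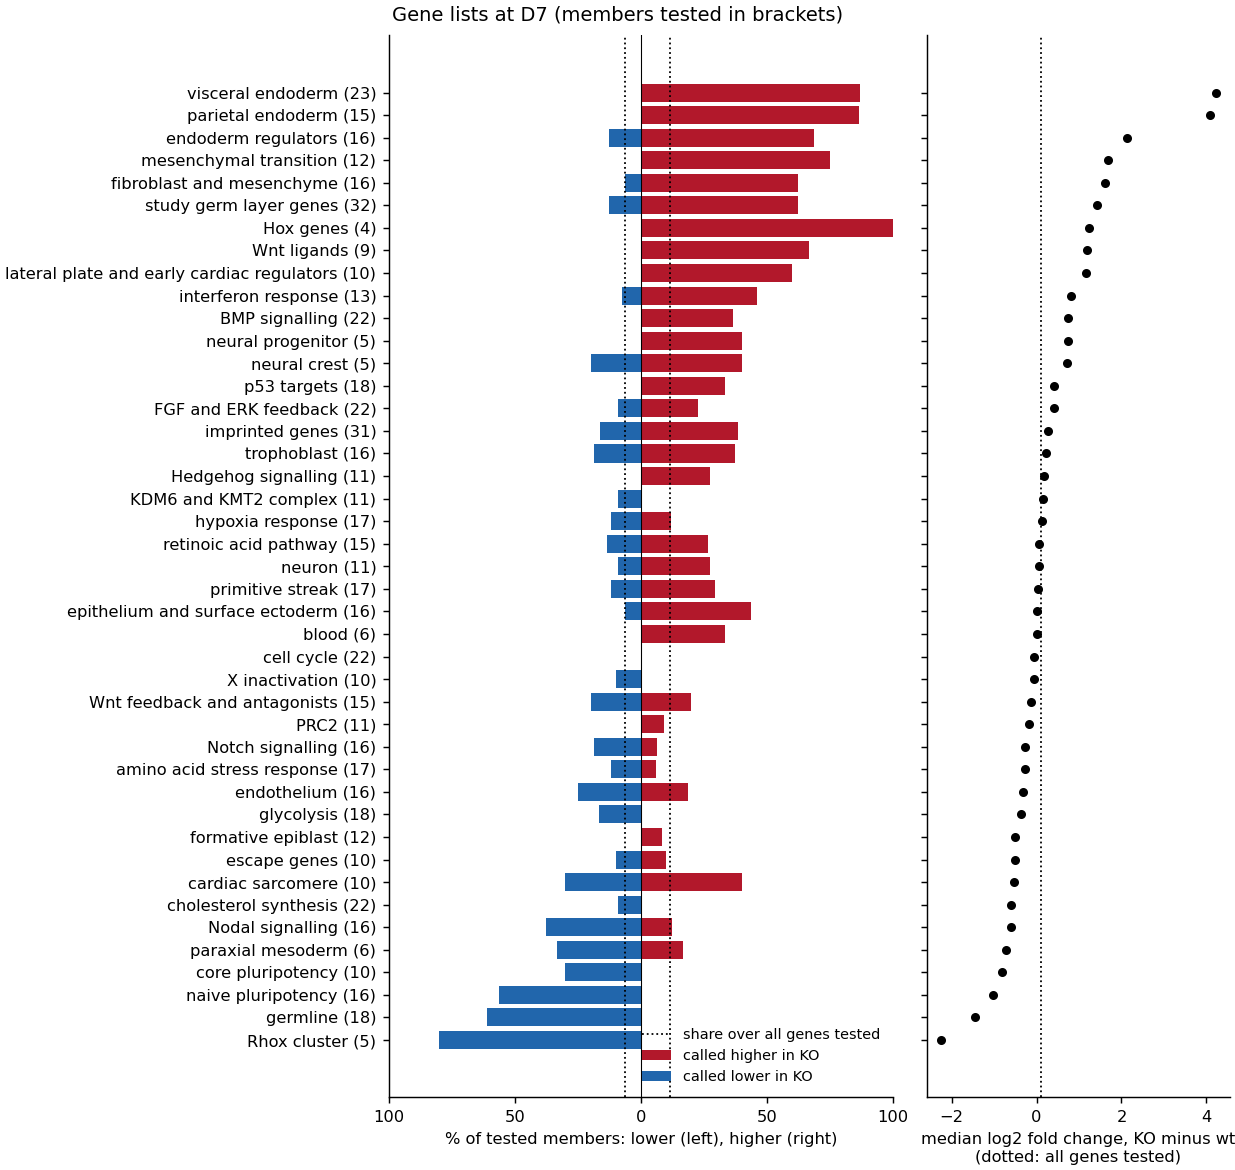
Gene lists with at least 3 members tested, ordered by median. Left, the percentage of tested members called higher (red) and lower (blue) in KO, with the shares over all genes tested (11.4% and 6.18%) dotted; right, the median log2 difference KO minus wt with the median of all genes dotted. Visceral and parietal endoderm lead at 4.22 and 4.09, and the Rhox cluster is lowest at -2.25.

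In the Nodal pathway, Nodal and its coreceptor hold the epiblast state and Lefty proteins limit it. Of 16 genes 6 fell and 2 rose. Lefty1 was at 297 and 276 TPM in wt and 18 and 18.5 TPM in KO, and with Lefty2 it had the greatest falls of the list (log2 difference -3.90 ± 0.06, adjusted p = 3.99e-09 by limma). Tdgf1 and Gdf3 fell as given above. Fst, follistatin, an activin-binding protein also in the parietal endoderm list, rose from 3.1 to 155 TPM. Nodal did not pass, at 58.1 in wt and 35.1 in KO TPM. In the BMP pathway 8 of 22 genes rose and none fell. The ligand Bmp2 rose from 1.01 to 19, the target Id3 from 35.9 to 203, and the antagonists Nog and Bmper from 0.639 to 17.8 and from 0.553 to 14.1 TPM. Bmp4 was at 40.1 in wt and 47.5 in KO TPM and did not pass.

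Wnt ligands were low in wt, and 6 of 9 tested rose. Wnt11 rose from 1.43 to 14.8, Wnt9a from 1.01 to 8.01, Wnt4 from 0.765 to 6.11 and Wnt3 as above. These wt means lie below the 2.5 TPM of the filter, so the direction of the count is partly set by it. Of 15 Wnt feedback genes and antagonists, 3 rose and 3 fell. The antagonists Frzb and Dkk1 rose from 0.881 to 18.2 and from 0.521 to 18 TPM, while Sfrp1 and Sfrp2, antagonists too, fell from 38.5 to 17.2 and from 25.1 to 8.09 TPM. Among 22 FGF genes, Fgf4, the ligand by which epiblast induces primitive endoderm, fell from 145 to 46.9 TPM and the ileal-type ligand Fgf15 from 25.8 to 9.82 TPM. The ligands Fgf10 and Fgf3 rose from 3.61 to 13.8 and from 3.91 to 13.4 TPM, the receptor Fgfr4 from 2.55 to 11.8 TPM and the ERK inhibitor Spred1 from 12.7 to 28.9 TPM. In the Notch list 1 of 16 rose, the target Hey2 (from 0.46 to 3.37 TPM), and 3 fell, with the Fringe enzyme Mfng from 18.7 to 4.75 and the receptor Notch4 from 7.28 to 1.36 TPM beside Dll3. Over all genes 11.4% were called higher and 6.18% lower. Of 11 Hedgehog genes, the ligand Ihh, which visceral endoderm secretes, rose from 0.402 to 13.1, the effector Gli3 from 3.21 to 8.72 and the target Foxf1 from 0.303 to 1.95 TPM.

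Retinoic acid genes were led by Cyp26a1, which degrades retinoic acid, at 15.9 and 15.8 TPM in wt and 207 and 217 TPM in KO (log2 difference 3.66 ± 0.04, adjusted p = 1.48e-09 by limma). It is on chromosome 19, as is Rbp4. Rdh10, which makes retinaldehyde, rose from 3.65 to 29.96 TPM and the retinol receptor Stra6 from 1.13 to 4.04 TPM. Crabp1, a binding protein, fell from 42.3 to 14.6 and Stra8, a retinoic acid target of germ cells, from 7.5 to 0.729 TPM, so that 4 of 15 rose and 2 fell. Only 4 of 39 Hox genes, the patterning genes of the body axis, were tested, and these rose at low levels. Among them were Hoxc13 from 1.04 to 5.03, Hoxd8 from 0.131 to 1.77 and Hoxd9 from 0.156 to 1.64 TPM. These wt means lie below the 2.5 TPM that the filter asks for, so the direction is partly set by the filter.

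None of 22 cell cycle genes was called by limma, and Rrm2 of nucleotide synthesis, Cdc20 of the anaphase complex and the replication helicase Mcm3 were at 411 in wt and 344 in KO, 310.3 in wt and 313 in KO and 275 in wt and 267 in KO TPM. Of 18 glycolysis genes 3 fell, namely Ldhb from 408 to 125, Pfkp from 133 to 47.1 and Eno1 from 48.1 to 22.9 TPM. Genes with many processed copies are uncertain there, since Gapdh was at only 1.98 TPM in wt and 1.93 TPM in KO (looked up after the values were seen). Of 17 hypoxia genes, the collagen prolyl hydroxylases P4ha1 and P4ha2 rose from 28.5 to 158 and from 13.4 to 120.5 TPM, and the oxygen sensor Egln3 and the mitophagy receptor Bnip3 fell from 71.4 to 30.3 and from 53.6 to 25.2 TPM. With 11.4% of all genes called higher and 6.18% lower, 2 rises and 2 falls do not set this list apart. In cholesterol synthesis 2 of 22 fell, against 6.18% of all genes. They were X-linked Nsdhl from 105 to 42.6 and Dhcr7 from 82.5 to 33.3 TPM, both late enzymes of the pathway, and the list's median was -0.60. Of 18 p53 targets 6 rose and none fell, with Ccng1 from 117 to 295, Mdm2 from 72.7 to 149, Phlda3 from 50.2 to 128 and Btg2 from 17.7 to 59.2 TPM the most abundant. In the amino acid stress list of 17, the factor Atf3 rose from 2.62 to 38.1 TPM, and Asns, asparagine synthetase, and Chac1, a glutathione-degrading enzyme, fell from 451 to 217 and from 15.2 to 5.69 TPM. These few calls do not set that list apart from the shares over all genes either. Of 13 interferon genes 6 rose and 1 fell. The ubiquitin-like protein gene Isg15 rose from 0.818 to 11.7, Mx2 from 1.1 to 5.56 and Ifi27 from 1.04 to 3.85 TPM, and Rsad2, an antiviral enzyme, fell from 2.62 to 0.509 TPM.

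Few genes of the KDM6 and KMT2 complex list and of PRC2 were called besides Kdm6a. In the list of 11 KDM6 and KMT2 complex genes Kdm6a was the only call, and log2 differences of the others reached 0.84. Of 11 PRC2 genes, which write H3K27me3, the accessory Phf1 rose from 3.6 to 9.11 TPM and none was called lower. Log2 differences in this list ran from -0.97 to 1.14, and 1 rise is near the 11.4% of all genes called higher. Xist was the only call among 10 X inactivation genes, and its BL6 share in wt was 88.7% and 89.5%. Its cast TPM was 1.92 and 2.37 in wt and 0 in both KO libraries. Its BL6 TPM was 3.51 and 4.24 in wt and 0.229 and 0.225 in KO. Of 10 genes that escape X inactivation, Kdm6a fell and Bgn, a matrix proteoglycan, rose from 1.92 to 8.37 TPM. Kdm5c, a histone demethylase, did not pass, at 60.01 in wt and 39.1 in KO TPM. Nor did Ddx3x, an RNA helicase that starts before Fundc1, at 434 in wt and 477 in KO TPM. Of 31 imprinted genes tested, 12 rose and 5 fell (median 0.28). Igf2, the fetal growth factor, was at 2.57 and 2.88 TPM in wt and 248 and 245 TPM in KO, and its neighbour H19, a noncoding RNA, at 255 and 256 TPM in wt and 1187 and 1153 TPM in KO, both far above wt in each KO library (log2 differences 6.05 ± 0.04 and 2.19 ± 0.05). Gnas, a G protein gene, rose from 245 to 724 TPM. Igf2r, the receptor that clears IGF2, fell from 36.4 to 14.5, the placental growth limiter Phlda2 from 41.4 to 11.3 and the noncoding RNA Mirg of chromosome 12 from 51.4 to 24.4 TPM (adjusted p of these 6 at most 6.72e-06 by limma).

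The largest falls by the fixed rule were mostly short RNA genes. The microRNA genes Mir135a-1 (236 and 16.2 TPM in wt) and Mir1188 (17.2 and 18.4 TPM) were listed at 0 in both KO libraries. Snora26, a small nucleolar RNA gene, was at 102 and 64.8 TPM in wt, and Mir8114 at 64.6 and 64.4 TPM, and both were below 0.01 TPM in both KO libraries. Snora24 was at 30.9 and 64.8 TPM in wt and 0.0016 and 0.414 TPM in KO. Snord88c was at 979 and 1043 TPM in wt and 389.6 and 0 TPM in KO, so that the KO libraries differed widely. Mir8104, among the 10 largest rises, was at 0 TPM to 2 decimals in wt and at 103 and 41.2 TPM in KO. TPM of such short genes can rest on few reads, and the libraries were made from polyA RNA, so these values are given without a fold. Short RNA genes together held 28.9% and 29.8% of all TPM in wt and 24.9% and 25.5% in KO, and the scaling of every other gene moves with that share. Besides Kdm6a and Lefty1, Otud6a, an X-linked deubiquitinase gene, fell from 22.7 to 0.729 TPM.

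The KO effect at D7 was set against that at D15, where 2 wt and 2 KO E8 libraries were compared in the same fit. The difference between the effects was itself called for 903 of 12452 genes (7.25%), with the D7 effect above the D15 effect in 419 (3.36%) and below it in 484 (3.89%). In the visceral endoderm list 20 of 23 genes were called with the D7 effect above and none below, and in parietal endoderm 11 of 15 above and 1 below. EBs were plated after D7, so the days also differ in culture. Afp was at 103 and 106 TPM in KO at D15, and its log2 difference from wt was 1.82 larger at D7. Sparc and Gata6 likewise had a log2 difference larger by 1.96 and 2.52 at D7. Primitive streak genes went the other way, with 12 of 17 below and none above, and T was at 66.2 and 67.3 TPM in KO at D15. Its log2 difference at D7 minus that at D15 was -1.53. Trophoblast genes had 12 of 16 below and none above. Naive pluripotency genes had 1 of 16 below and none above, so that for the other 15 a difference between the days was not called.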

How the data were processed

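The authors sequenced polyA RNA (TruSeq V2 kit, 75 bp single-end reads), aligned it to mm10 with TopHat and, for the alleles, Bowtie2 (versions 2.1.1 of TopHat2 and 2.4.5 of Bowtie2 in the submitters' processing notes), and deposited TPM per gene for reads aligned to the BL6 genome, used here as the level of both alleles, and for reads with variants of each allele. No counts were used here, so depth is unknown and no counting interval is given. Rows sharing a symbol were summed, and genes that reached 2.5 TPM in 2 or more of the 8 E8 libraries were tested on log2(TPM + 1). A gene near 0 in 1 genotype could pass this filter only through the other, so the direction of such genes is partly set by the filter, in the counts of every list. limma 3.58.1 (R 4.3.3) with a trend was fitted to the 8 libraries by genotype and day, with Benjamini-Hochberg adjustment over all genes. A gene was called at a false discovery rate of at most 0.1 and at least 2-fold, the thresholds of the study, whose own count model needs counts. The script was tested on simulated data. BL6 shares used genes with at least 2.5 TPM over both alleles, since the deposited allelic TPM are scaled apart for each allele. Positions are from GENCODE M21 (GRCm38).

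Named were Kdm6a, Xist, the 10 largest rises and falls among calls whose groups did not overlap and whose higher mean reached 5 TPM, and up to 4 called members per list and direction with the highest mean TPM (up to 3 members where none was called). Other genes are said to be looked up, or given because they did not pass. Values of 5 genes are not reported here. Members and lists were chosen with earlier results of these data known.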

Additional observations from a re-analysis of the deposited data

Results flagged for a closer look

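Each gene below had an effect of KO at D7 that differed from the effect at D15 by the test of the difference itself (interaction of genotype and day in limma, false discovery rate at most 0.1 and at least 2-fold). Values are the log2 difference KO minus wt at D7 minus that at D15.

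Among genes of the visceral endoderm list the difference was 1.82 for Afp, 2.32 for Ttr, 1.82 for Cited1, 2.31 for Dab2, 1.78 for Amn, 1.70 for Rbp4 and 2.14 for Ihh. For 3 other genes among the 10 largest rises it was 2.30 for Aqp8, 3.18 for S100g and 2.4 for Glipr1. In the parietal endoderm list it was 2.63 for Col4a1, 2.69 for Col4a2, 1.96 for Sparc, 1.98 for Lamb1, 1.95 for Lamc1 and 2.37 for Fst. For endoderm factors it was 1.57 for Gata4, 2.52 for Gata6, 1.56 for Sox17 and 2.32 for Sox7. Other genes with a greater rise at D7 were those of mesenchyme and muscle, with 2.59 for Acta2, 1.61 for Pdgfra, 1.07 for Mmp14, 1.35 for Itga5, 1.55 for Myl3 and 1.29 for Csrp3. Signalling genes had 1.56 for Wnt11, 1.36 for Nog, 1.79 for Fgfr4 and 1.68 for Stra6, hypoxia and amino acid stress genes 1.58 for P4ha2 and 2.13 for Atf3, and the neuron gene Gap43 1.44.

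The D7 effect was below the D15 effect for genes of streak and mesoderm, with -1.53 for T, -2.11 for Cdx2, -2.19 for Wnt3, -1.80 for Lefty1, -1.33 for Lefty2, -4.17 for Mesp1, -2.39 for Dll3, -2.17 for Hand1, -1.38 for Foxf1 and -1.24 for Hoxd9. Muscle and vessel genes had -1.83 for Tnnc1, -1.60 for Myl7, -1.38 for Myl2, -1.62 for Myl4, -1.87 for Cldn5 and -3.72 for Etv2. In endoderm, epithelium and trophoblast it was -1.35 for Trh, -2.87 for Cer1, -1.87 for Cldn3, -1.01 for Krt7, -1.05 for Plac1 and -1.02 for Ascl2, and the fibroblast list gene Thy1 had -1.66. Germline, Rhox and imprinted genes had -1.41 for Sycp3, -1.57 for Tuba3a, -1.38 for Rhox1, -3.40 for Rhox6, -3.14 for Rhox9, -1.20 for H19 and -1.36 for Phlda2. Signalling and metabolic genes had -1.43 for Sfrp2, -1.44 for Fgf15, -1.84 for Cyp26a1, -1.11 for Crabp1, -1.16 for Ldhb, -1.54 for Pfkp, -1.32 for Eno1, -1.26 for Egln3, -2.24 for Bnip3, -1.25 for Dhcr7 and -1.55 for Ifi27. Xist had -1.85. The short RNA genes had -9.39 for Snora26, -12.85 for Mir8114, -6.00 for Mir135a-1 and -7.57 for Snora24.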

How the results depend on the processing

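With a pseudocount of 5 in place of 1, 1161 genes were called at D7 (847 higher, 314 lower), 2 of the study's germ layer genes fell, the difference between days was called for 430 genes, and the X-linked minus autosomal median was -0.56. It was -0.77 with the settings used for the results above and -0.23 with no filter on low values. Without rescaling to the autosomes the wt X had a median BL6 share of 20.03%, and at a minimum of 5 TPM over both alleles 53.4%. Cdc20, not called, had a log2 difference of 0.01, and of -0.066 after median ratio scaling, -0.077 after quantile normalization, -0.069 with short RNA genes removed (chosen after seeing the data, as was leaving out chromosomes 12, 19 and X); it ranged from -0.033 (without wt replicate 2) to 0.060 when 1 library was left out. The cause was not tested.

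Leaving out each D7 library in turn gave 2078 to 2181 calls, 1298 to 1448 higher and 733 to 780 lower, 881 to 941 calls between days, 18 to 20 visceral and 12 to 13 parietal endoderm genes higher, 8 to 9 naive pluripotency genes lower and 16 to 20 of the study's germ layer genes higher. The lone library of a group is then assumed to vary like the others. At a false discovery rate of 0.05, 2175 genes were called. Of the 166 named calls, 47 were lost under at least 1 alternative, 46 of them with a pseudocount of 5, 5 after quantile normalization, 2 after median ratio scaling, 1 with no filter on low values and 1 with short RNA genes removed. Leaving out a library lost 2 (KO replicate 1), 3 (KO replicate 2), 4 (wt replicate 1) and 1 (wt replicate 2) of these calls.

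With the replicate number as a block, 2190 genes were called (1418 higher, 772 lower), 908 between days, and no named call was lost. Same-numbered wt and KO libraries deviated together with r = 0.116 at D7 and -0.162 at D15. The labels give only a replicate number, and r from 2 libraries per group cannot show whether same-numbered libraries shared a culture or run. Depth cannot be read from TPM, which limits what can be said of low genes.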
